A study of Mus musculus with 14 samples.

Results

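The genes described here encode the enzymes that turn farnesyl diphosphate into squalene and squalene into cholesterol. They were taken from the table of read counts by symbol as Fdft1, Sqle, Lss, Cyp51, Tm7sf2, Lbr, Nsdhl, Hsd17b7 and Dhcr7, and all 9 were found among the 25212 genes listed. The counts came from the livers of 14 male C57BL/6 mice, 1 library per liver, all fed a high-fat diet (HFD). The 5 DIO mice were obese on this diet and had no surgery. In the 4 GB-IL mice the gallbladder had been joined to the ileum and the common bile duct tied, so that bile entered the distal small bowel. The 5 RYGB mice had undergone Roux-en-Y gastric bypass. By the sample labels the operated livers were taken 8 weeks after surgery. One figure caption of the authors gives an earlier time for liver gene expression, and the labels are followed here. No sham-operated liver was sequenced in the data used here, so surgery itself and the diversion of bile cannot be told apart in a comparison with DIO. The authors also report lower food intake, weight loss and fat malabsorption after both operations. Without a pair-fed liver, these cannot be told apart from the operations either. Livers are named by group and replicate number, as in DIO 1.

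Cholesterol is built from acetyl-CoA. The mevalonate arm makes isoprenoid units and ends in farnesyl diphosphate, which also feeds other products, whereas the steps from squalene onward are committed to sterols. Hepatocytes carry out much of the synthesis in the body, and sterol regulatory element-binding protein 2 (SREBP2), a transcription factor held in the endoplasmic reticulum when sterols are abundant, is known to drive most of these genes. Hepatic cholesterol is in turn the precursor of bile acids.

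The enzymes act in sequence. Fdft1 (squalene synthase) makes squalene, Sqle (squalene epoxidase) adds the oxygen and is a rate-limiting step, and Lss closes the rings to give lanosterol. Cyp51 removes the C14 methyl group of lanosterol, and the double bond left behind is reduced by Tm7sf2 or by Lbr. The lamin B receptor Lbr is both a sterol reductase and a protein of the inner nuclear membrane that binds lamins and heterochromatin, and its loss is known to alter the shape of neutrophil nuclei. Nsdhl and Hsd17b7 take part in removing the C4 methyl groups. Dhcr7 reduces 7-dehydrocholesterol to cholesterol.

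In the RefSeq tables for GRCm38.p6, 7 of the 9 genes had a promoter window, from 250 bases before to 50 bases after a transcription start, with 3 windows for Dhcr7 and 9 windows in all. Fdft1 and Sqle were not matched. Because most of these genes varied together from liver to liver, the windows were searched on both strands for TCACNNCA, a pattern that resembles sterol regulatory elements, for CCAAT, the core bound by NF-Y, and for GGGCGG, a GC box. No matches to different patterns overlapped in these windows, and the patterns were chosen after the promoters had been seen. TCACNNCA was found in 4 of the 7 genes (Cyp51, Nsdhl, Hsd17b7 and Dhcr7) and in 5 of the 9 windows, against 13.8% of all 32851 windows. CCAAT was found in all 7 genes and in 7 of the 9 windows, against 37.4% of all windows. GGGCGG was found in all 7 genes and in 8 windows, against 35.7%. A match of letters is a description and not a binding site.

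The 250 bases before the start are printed for 5 genes, 5′ to 3′ on the strand of the gene, with TCACNNCA and CCAAT matches in capitals. Cyp51 and Hsd17b7 are shown because both hold the same 8 letters, TCACCTCA, beginning 88 and 117 bases before the start. Dhcr7 is shown by its window 3, which holds TCACATCA 32 bases before the start between CCAAT letters and the start. Lbr and Tm7sf2 are shown because they serve the same reaction. Neither of their windows holds TCACNNCA on either strand, and the window of Lss, not printed here, lacks it too. The windows lie at chr5:4104698-4104947 (minus strand) for Cyp51, chr1:169969206-169969455 (minus strand) for Hsd17b7, chr7:143829964-143830213 (plus strand) for Dhcr7, chr1:181842402-181842651 (minus strand) for Lbr and chr19:6067851-6068100 (minus strand) for Tm7sf2.
Cyp51: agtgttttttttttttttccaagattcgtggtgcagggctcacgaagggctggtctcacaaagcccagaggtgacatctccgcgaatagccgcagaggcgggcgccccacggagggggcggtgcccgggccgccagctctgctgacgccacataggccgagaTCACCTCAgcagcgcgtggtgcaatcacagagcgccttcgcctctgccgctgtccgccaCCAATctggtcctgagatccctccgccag
Hsd17b7: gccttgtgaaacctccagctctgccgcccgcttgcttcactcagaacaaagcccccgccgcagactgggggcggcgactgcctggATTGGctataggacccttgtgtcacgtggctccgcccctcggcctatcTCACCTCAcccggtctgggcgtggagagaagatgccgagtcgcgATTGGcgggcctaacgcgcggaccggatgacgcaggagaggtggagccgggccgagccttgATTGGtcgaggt
Dhcr7: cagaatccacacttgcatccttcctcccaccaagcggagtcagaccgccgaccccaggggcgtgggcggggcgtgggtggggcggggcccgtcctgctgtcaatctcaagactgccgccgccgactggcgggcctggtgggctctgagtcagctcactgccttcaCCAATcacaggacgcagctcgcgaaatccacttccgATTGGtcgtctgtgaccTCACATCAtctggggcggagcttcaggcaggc
Lbr: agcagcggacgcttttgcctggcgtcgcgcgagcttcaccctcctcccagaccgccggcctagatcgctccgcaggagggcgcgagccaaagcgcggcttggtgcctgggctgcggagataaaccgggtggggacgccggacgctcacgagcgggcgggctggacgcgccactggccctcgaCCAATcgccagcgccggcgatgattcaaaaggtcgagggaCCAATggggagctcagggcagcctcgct
Tm7sf2: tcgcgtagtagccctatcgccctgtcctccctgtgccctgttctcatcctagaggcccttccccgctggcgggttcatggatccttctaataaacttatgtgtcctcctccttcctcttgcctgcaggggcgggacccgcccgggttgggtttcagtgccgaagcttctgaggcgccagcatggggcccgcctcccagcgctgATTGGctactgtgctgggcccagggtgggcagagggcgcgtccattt

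The total count per liver ranged from 18223135 to 28656631. Albumin lay between 57310 and 116600 CPM (counts scaled to a common library size) in every liver, and the 7 hepatocyte markers found in the table summed to between 102700 and 151200 CPM, which matched the labelled tissue. Single markers varied more than the sum, with Fgb between 2996 and 20860 CPM. Of the 7, 1 was called higher in GB-IL than in DIO, against 3.15% of all genes. CPM are scaled by edgeR's TMM factors throughout. The livers of the GB-IL group were spread widely. In a principal component analysis, component 1 took 48.5% of the variance, and on it GB-IL 1 and GB-IL 2 lay at 134 and 106, whereas GB-IL 4 lay at -35.3 within the DIO range of -45.7 to -21.9. RYGB 5 lay at 17.4 and the other RYGB livers between -33.8 and -2.14. Markers of neutrophils, macrophages, cholangiocytes, stellate cells and endothelial cells also differed between livers, and their values are given beside the result for Lbr. The 4 RNAs without a poly(A) tail, of which 1 was tested and none called, summed to 0.492 to 2.26 CPM in DIO, 1.40 to 6.83 in GB-IL and 1.03 to 2.46 in RYGB. Their part in the results was not tested.

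All 9 genes passed the filter on low counts. In the DIO livers, per kilobase of the longest principal transcript, Tm7sf2 had the highest level (56.6 ± 18.02 CPM per kb, SD, n = 5). Nsdhl (25.0 ± 12.8), Cyp51 (22.8 ± 16.9), Fdft1 (22.6 ± 12.3) and Dhcr7 (21.7 ± 10.1) followed in CPM per kb and lay within each other's spread. Sqle (11.7 ± 11.2), Hsd17b7 (8.15 ± 3.16) and Lss (7.68 ± 3.54) were lower and also overlapped. Lbr was the lowest at 2.32 ± 0.407 CPM per kb, and its highest DIO liver (3.03) lay below the lowest DIO liver of each other enzyme. The place of Tm7sf2 depends on the length used, since with all annotated exons merged it came in DIO (18.9 CPM per kb) after Cyp51 (20.3), Fdft1 (19.8) and Nsdhl (19.0). Lbr remained the lowest in each of the 3 groups by either length.

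**Figure D1:**
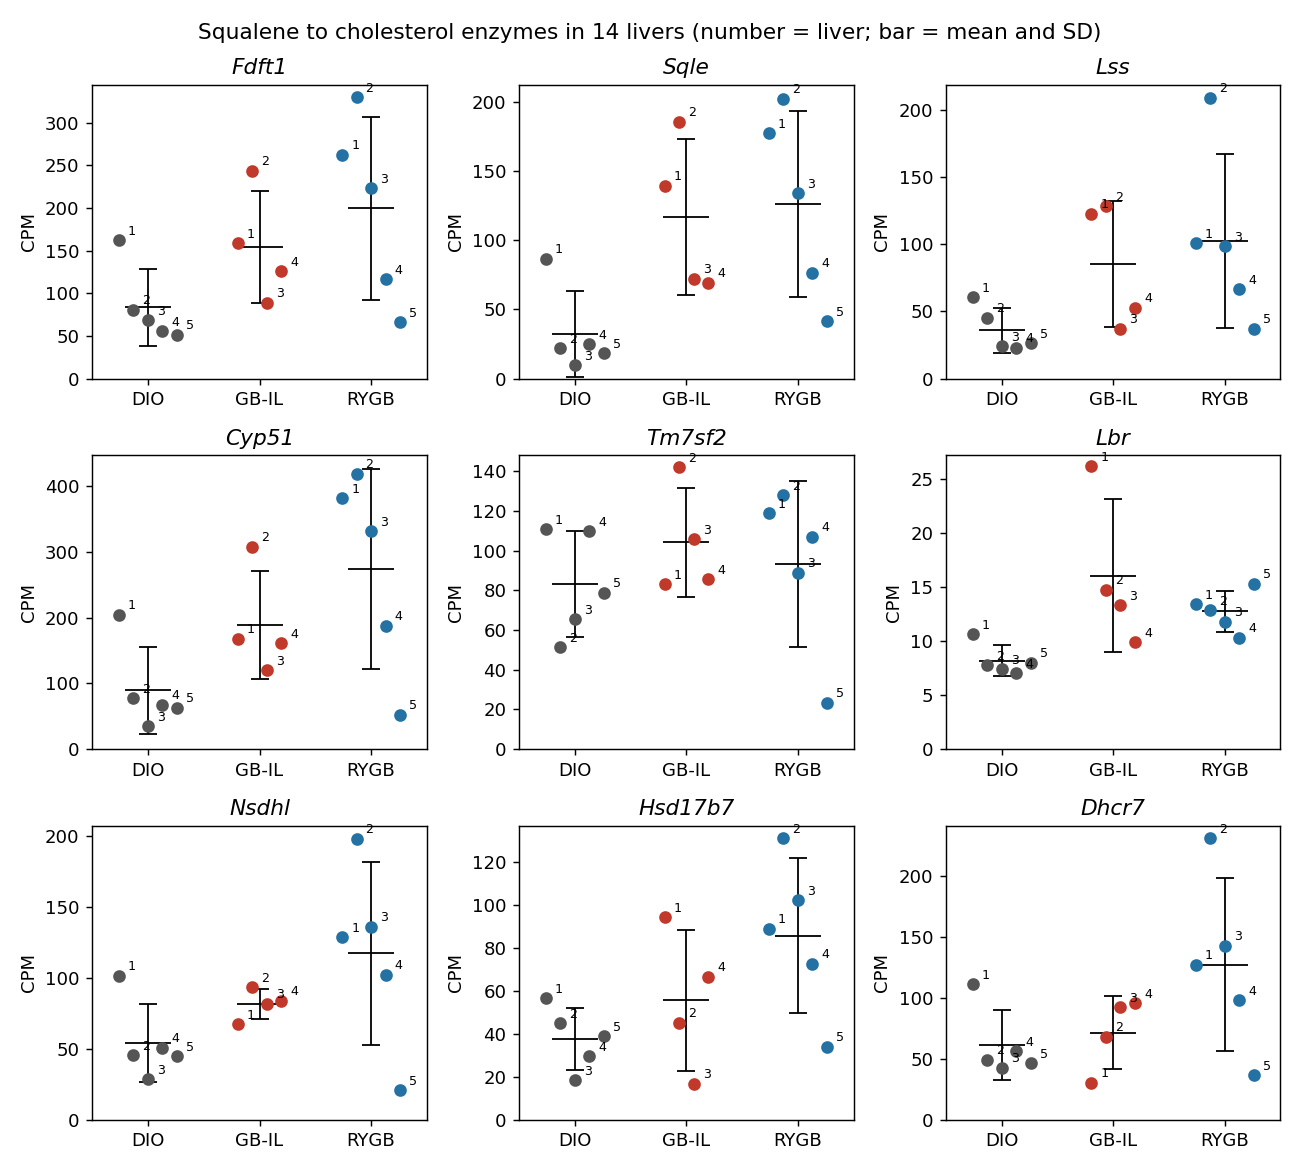
CPM (y axis) of each of the 9 genes in the 5 DIO, 4 GB-IL and 5 RYGB livers (x axis). Each point is a liver with its replicate number, and bars give the mean and SD. DIO 1 is the highest DIO point in every panel, and RYGB 5 is the lowest RYGB point in every panel but that of Lbr.

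The first question was whether livers with diverted bile differed from DIO livers in these enzymes. Mean levels of all 9 were higher in GB-IL than in DIO, with log2 differences from 0.23 (Dhcr7) to 1.85 (Sqle) and a median of 0.88, against a median of 0.04 over the 14252 genes tested, of which 12.4% lay at or above 0.88. Lbr rose 1.96-fold and was the only 1 of the 9 to pass the test, at a false discovery rate of 0.05 in edgeR's quasi-likelihood model, with p-values adjusted by Benjamini-Hochberg over all genes tested. Of all genes tested, 3.15% were called higher in this comparison. In RYGB livers the means of all 9 were also above DIO, with log2 differences from 0.16 (Tm7sf2) to 1.96 (Sqle) and a median of 1.19, against 0.01 over all genes, of which 2.03% lay at or above it. None of the 9 passed the test there, the smallest adjusted p by edgeR being 0.383 for Sqle, and no gene of the whole table did (0% called higher). That fit shares 1 estimate of the spread with the GB-IL livers. In the fit of RYGB and DIO alone edgeR called 33 of 13627 genes tested. No member was among them, the smallest adjusted p by edgeR being 0.0924 for Lbr.

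Both comparisons use the same 5 DIO livers, so they are not independent of each other. At an unadjusted p below 0.05, 3 members were higher in GB-IL (Sqle, Lss and Lbr), against 16.7% of all genes, and 8 members were higher in RYGB (all but Tm7sf2), against 5.35% of all genes. Ranges overlapped between the groups for each of the 9 genes in both comparisons, whereas 2.67% of all genes were higher in GB-IL without overlap and 1.87% in RYGB. By other tools the calls differed. DESeq2 called Lbr and Sqle in GB-IL and Sqle in RYGB (adjusted p = 0.0195 and 0.0391 for Sqle), against 7.77% and 0.449% of all genes called higher. Limma's voom with sample quality weights called none in GB-IL and 8 in RYGB, with adjusted p from 0.00649 to 0.023, against 3.58% and 6.08% of all genes called higher. Cholesterol biosynthesis had been singled out by the authors in these same livers, for RYGB against DIO, and the GB-IL comparison uses the same DIO livers. The direction of the group is therefore not independent evidence. These are counts from whole tissue, in which fewer cells of a type and less RNA per cell cannot be told apart.

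**Figure D2:**
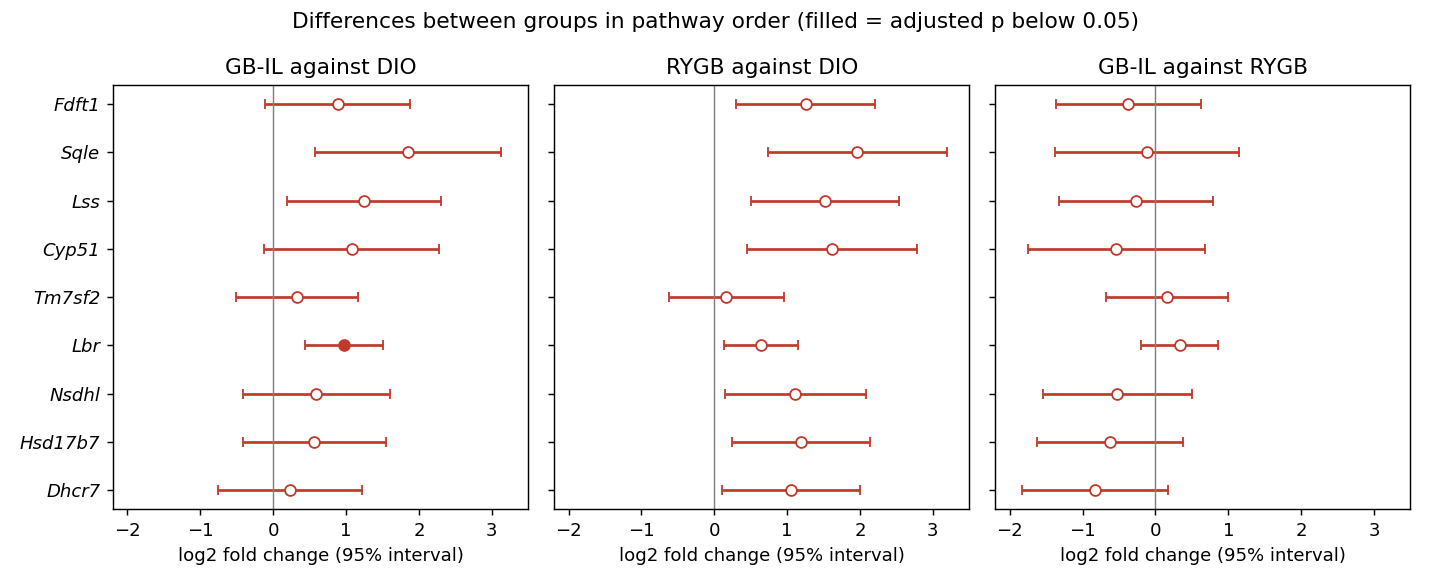
Log2 fold change (x axis) of each enzyme in pathway order (y axis), with its 95% interval, for GB-IL against DIO, RYGB against DIO and GB-IL against RYGB. The filled point, Lbr at 0.97 in GB-IL against DIO, is the only one past the adjusted threshold.

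Fdft1, on chromosome 14 (63145150 to 63179578, minus strand of GRCm38), averaged 83.6 ± 45.4 CPM in DIO, 154 ± 66.1 in GB-IL and 200 ± 107 in RYGB (SD). Its highest liver was RYGB 2 at 330 CPM and its lowest was DIO 5 at 51.4. The log2 difference from DIO was 0.88 (SE 0.45, edgeR adjusted p = 0.25) in GB-IL and 1.25 (SE 0.43, edgeR adjusted p = 0.468) in RYGB. Exons of Fdft1 share 774 bases with Ctsb on the opposite strand, and a processed pseudogene, Gm6781, matches its transcript at 97.4% identity over 1249 bases, so some reads may have been divided between them. Gm6781 averaged 2.07 CPM over all livers.

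Sqle (chromosome 15, 59315077 to 59331192, plus strand) had the largest difference among the 9 in both comparisons. It was at 86.6 CPM in DIO 1, 22.1 in DIO 2, 9.87 in DIO 3, 24.8 in DIO 4 and 18.5 in DIO 5. In the GB-IL livers it was at 139, 186, 72.1 and 69.4 CPM (livers 1 to 4). RYGB livers 1 to 5 had 177, 202, 134, 76.6 and 41.6 CPM. DIO 1 lay above 2 of the 4 GB-IL livers and 2 of the 5 RYGB livers, whereas each operated liver lay above the other 4 DIO livers. The fold change was 3.60 in GB-IL (log2 1.85, SE 0.58, edgeR adjusted p = 0.0892) and 3.90 in RYGB (log2 1.96, SE 0.56, edgeR adjusted p = 0.383).

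Lss (chromosome 10, 76531588 to 76557138, plus strand) was at 35.9 ± 16.5 CPM in DIO, 85.2 ± 46.9 in GB-IL and 102 ± 65.0 in RYGB. GB-IL 1 and GB-IL 2 lay at 123 and 128 CPM, above every DIO liver, and GB-IL 3 and GB-IL 4 at 37.2 and 52.9, inside the DIO range of 23.1 to 60.5. Of the 5 RYGB livers, 4 lay above DIO and RYGB 5 did not (37.2 CPM). The log2 difference was 1.25 (SE 0.48, edgeR adjusted p = 0.146) in GB-IL and 1.51 (SE 0.46, edgeR adjusted p = 0.403) in RYGB. Lss exons share 381 bases with 4930483K19Rik, a listed gene on the opposite strand.

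Cyp51 (chromosome 5, 4081145 to 4104746, minus strand) was the member whose pattern over the 14 livers was most like that of the other 8. It had 205, 77.2, 34.6, 67.9 and 63.2 CPM in DIO 1 to 5, then 168, 308, 120 and 161 CPM in GB-IL 1 to 4. In RYGB 1 to 5 it had 382, 419, 332, 188 and 52.2 CPM. DIO 1 exceeded all GB-IL livers but GB-IL 2, and RYGB 5 lay below all DIO livers but DIO 3. Its log2 difference was 1.08 (SE 0.55, edgeR adjusted p = 0.247) in GB-IL and 1.62 (SE 0.53, edgeR adjusted p = 0.446) in RYGB. Cyp51 exons share 166 bases with Akap9, a listed gene on the opposite strand.

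Tm7sf2 and Lbr, the sterol C14 reductases, differed in their pattern. Tm7sf2 (chromosome 19, 6062821 to 6068373, minus strand) had 111, 51.4, 65.5, 110 and 78.7 CPM in DIO 1 to 5 and 82.9, 142, 106 and 85.7 in GB-IL 1 to 4. RYGB 1 to 4 had 119, 128, 89.0 and 107 CPM, and RYGB 5 had 23.4 CPM, the lowest of the 14 livers. The log2 difference was 0.32 (SE 0.38, edgeR adjusted p = 0.601) in GB-IL and 0.16 (SE 0.36, edgeR adjusted p = 0.926) in RYGB, with 95% intervals of -0.51 to 1.16 and -0.63 to 0.95. Exons of Tm7sf2 share 532 bases with Vps51 on the same strand, so the reads there could belong to either gene.

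Lbr (chromosome 1, 181815335 to 181843046, minus strand) had the narrowest spread in DIO, at 10.6, 7.78, 7.38, 7.02 and 7.98 CPM in DIO 1 to 5. In GB-IL 1 to 4 it had 26.2, 14.7, 13.3 and 9.89 CPM. RYGB 1 to 5 had 13.4, 12.8, 11.8, 10.3 and 15.3 CPM. Of the GB-IL livers 3 of 4, and of the RYGB livers 4 of 5, lay above every DIO liver, and the exceptions, GB-IL 4 and RYGB 4, lay below DIO 1 only. The log2 difference was 0.97 (SE 0.24, 95% interval 0.44 to 1.51, edgeR adjusted p = 0.0429) in GB-IL and 0.64 (SE 0.23, 95% interval 0.13 to 1.15, edgeR adjusted p = 0.479) in RYGB. The call in GB-IL stood close to the threshold. It was lost by edgeR in 11 of the 14 fits that left out 1 liver (any DIO liver, GB-IL 1 or 2, or any of RYGB 1 to 4), with log2 differences from 0.62 (without GB-IL 1) to 1.14 (without GB-IL 4) and adjusted p from 0.00423 to 0.137. It was also lost with voom (adjusted p = 0.0527), with no filter on low counts (adjusted p = 0.0514 by edgeR), and in the fit of the compared groups alone (adjusted p = 0.138 by edgeR). Exons of Lbr share 440 bases with Dnah14 on the opposite strand, which is not among the genes listed. They also share 69 bases with Gm26004, an rRNA gene on the same strand that is listed, so the reads there could belong to either gene.

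Since Lbr is known for its part in neutrophil nuclei, marker sums were set beside it. The 8 neutrophil markers, of which 5 were tested and 4 were called higher in GB-IL, summed to between 5.53 and 10.3 CPM in DIO, where Ly6g was at 0 in each liver, to 116, 52.3, 321 and 6.68 CPM in GB-IL 1 to 4, and to 84.4 CPM in RYGB 5 against 7.40 to 12.7 in the other RYGB livers. Thus RYGB 5 had both the highest neutrophil sum and the highest Lbr level among RYGB livers, and GB-IL 4 had the lowest of both among GB-IL livers, whereas GB-IL 3, with the highest neutrophil sum, was not the highest in Lbr. Of 9 macrophage markers 4 were called higher in GB-IL, with sums of 404 to 714 CPM in DIO, 659 to 2315 in GB-IL and 429 to 1063 in RYGB. Cholangiocyte markers, of which 5 of 6 were tested and 3 called higher in GB-IL, summed to 30.5 to 65.8 CPM in DIO, 58.1 to 318 in GB-IL and 56.7 to 66.8 in RYGB. The 8 stellate cell markers, of which 1 was called higher in GB-IL, summed to 888 CPM in GB-IL 1 and 625 in RYGB 5, against 191 to 314 in DIO and 248 to 321 in the other operated livers. These 2 livers also had the highest levels of Lbr of the 14. The 7 endothelial markers, none of them called, summed to 498 CPM in RYGB 5 and to between 161 and 271 in the other 13 livers. The part of these cell types in the result for Lbr was not tested. Of the 10 other genes of the inner nuclear membrane and lamina, none passed edgeR's test in any comparison of all 14 livers. DESeq2 called 1 in GB-IL against DIO, where it called 1292 of the 14252 genes tested. Voom called 2 in RYGB against DIO, where it called 1690 of the 14252. Without GB-IL 4, edgeR called 3 in GB-IL against DIO, where it called 3572 of 14492 genes tested. The median log2 difference of these 10 genes was 0.22 in GB-IL and -0.10 in RYGB. In GB-IL, Lmna was at 0.68 (SE 0.29, edgeR adjusted p = 0.18) and Lmnb2 at -0.78 (SE 0.26, edgeR adjusted p = 0.108).

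The ratio of Lbr to Tm7sf2, both per length, was compared within each liver. Its log2 value averaged -4.56 ± 0.449 in DIO, -4.01 ± 0.739 in GB-IL and -3.93 ± 1.17 in RYGB. Lbr was thus present at between 0.0268 and 0.0634 of the level of Tm7sf2 in 12 livers, and at 0.132 in GB-IL 1 and 0.274 in RYGB 5. With the length of all annotated exons in place of the principal transcript the ratio was 0.059 to 0.14 in those 12 livers, 0.292 in GB-IL 1 and 0.605 in RYGB 5, a constant shift of 1.14 on the log2 scale that leaves the differences between groups as they are. The differences did not pass an exact two-sided permutation test over livers, with p = 0.23 for GB-IL against DIO, p = 0.357 for RYGB against DIO and p = 0.921 for GB-IL against RYGB (adjusted over the 3 comparisons 0.536, 0.536 and 0.921), where the smallest p these group sizes allow is 0.00794. Without RYGB 5 the difference between RYGB and DIO fell from 0.63 to 0.12 on the log2 scale, and without GB-IL 1 that between GB-IL and DIO fell from 0.55 to 0.18.

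**Figure D3:**
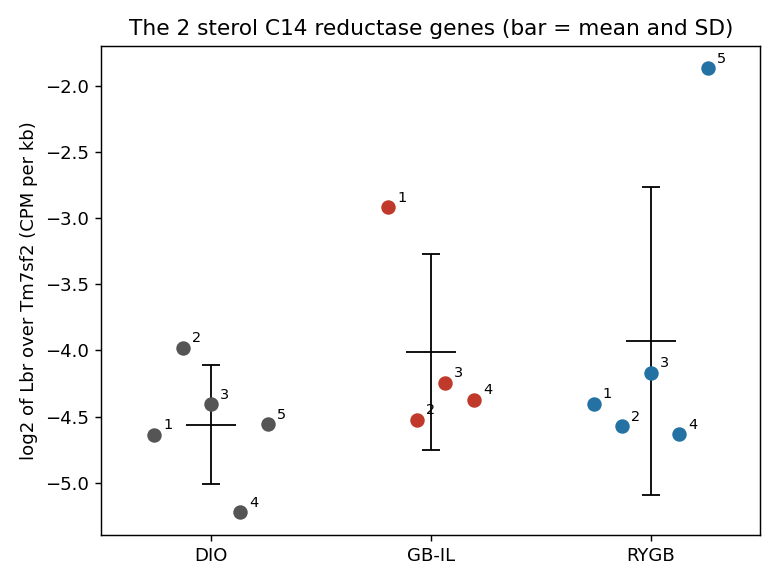
Log2 of the ratio of Lbr to Tm7sf2, each in CPM per kb (y axis), in the livers of the 3 groups (x axis), with replicate numbers and with bars for mean and SD. GB-IL 1 at -2.92 and RYGB 5 at -1.87 stand above the other 12 livers, which lie between -5.22 and -3.98.

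Nsdhl, Hsd17b7 and Dhcr7 act after the C14 step. Nsdhl (chromosome X, 72918557 to 72958514, plus strand) had 54.2 ± 27.7 CPM in DIO and 81.6 ± 10.7 in GB-IL, where its 4 livers lay between 67.3 and 93.2 CPM, the narrowest relative spread of any member in GB-IL (13.1% of the mean). In RYGB it had 117 ± 64.3 CPM, with RYGB 5 at 20.9 below every DIO liver. Hsd17b7 (chromosome 1, 169949535 to 169969241, minus strand) had 94.2, 45.2, 16.7 and 66.5 CPM in GB-IL 1 to 4 against 18.4 to 56.5 in DIO, so that GB-IL 3 lay below and GB-IL 1 and GB-IL 4 above all DIO livers. Dhcr7 (chromosome 7, 143823145 to 143848410, plus strand) had 30.3, 67.8, 92.0 and 95.2 CPM in GB-IL 1 to 4 against 42.5 to 111 in DIO. GB-IL 1, the highest of the 14 livers for Lbr, was thus the lowest of the 14 for Dhcr7.

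For these 3 genes the log2 differences between GB-IL and DIO were 0.59, 0.57 and 0.23 (SE 0.46, 0.45 and 0.45), and edgeR's adjusted p was 0.422, 0.432 and 0.769. In RYGB they were 1.11, 1.19 and 1.05 (SE 0.44, 0.43 and 0.43), with adjusted p by edgeR of 0.517, 0.481 and 0.53. RYGB livers 1 to 4 had 127, 231, 142 and 97.6 CPM of Dhcr7, 3 of them above every DIO liver, and RYGB 5 had 36.2 CPM, below every DIO liver.

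GB-IL and RYGB were then compared directly. Of the 9 genes, 7 had lower and 2 (Tm7sf2 and Lbr) had higher means in GB-IL, with a median log2 difference of -0.37 against 0.03 over all genes. None was called, nor was any gene of the table (0%). None of the 9 had an unadjusted p below 0.05, against 22.1% of all genes, and the ranges of the groups overlapped for each of the 9, against 2.84% of all genes without overlap. The largest difference was that of Dhcr7, at 71.3 ± 30.0 CPM in GB-IL and 127 ± 70.8 in RYGB (log2 -0.83, SE 0.46, 95% interval -1.84 to 0.18, edgeR adjusted p = 0.29). The intervals were wide for the others too. That of Sqle, whose means were 117 and 126 CPM, ran from -1.38 to 1.15, so differences of more than 2-fold in either direction lay inside it. By DESeq2 and by voom no member was called either, at 845 and 115 genes called over the table.

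The heat map shows the members liver by liver. DIO 1 was the highest DIO liver for 9 of the 9 genes, whereas it was the highest DIO liver for 18.6% of all genes tested. Its median over the 9 genes lay 0.86 above the DIO mean on the log2 scale, against -0.58 to -0.21 for the other DIO livers. RYGB 5 was the lowest RYGB liver for 8 of the 9 genes, against 25.9% of all genes, and its median was -0.34, inside the range of DIO 2 to DIO 5. RYGB 2 was the highest RYGB liver for 8 of the 9 genes, against 14.6% of all genes, with a median of 1.92. The coefficient of variation of the members had a median of 46.6% in DIO, 43.3% in GB-IL and 53.8% in RYGB. Over the 7745 genes that averaged 10 CPM or more the median was 16.7%, 33.5% and 17.0%, and 3.41%, 32.8% and 3.6% of them lay at or above the median of the members. The members share a liver and a library in each column, so these counts are not independent over genes.

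**Figure D4:**
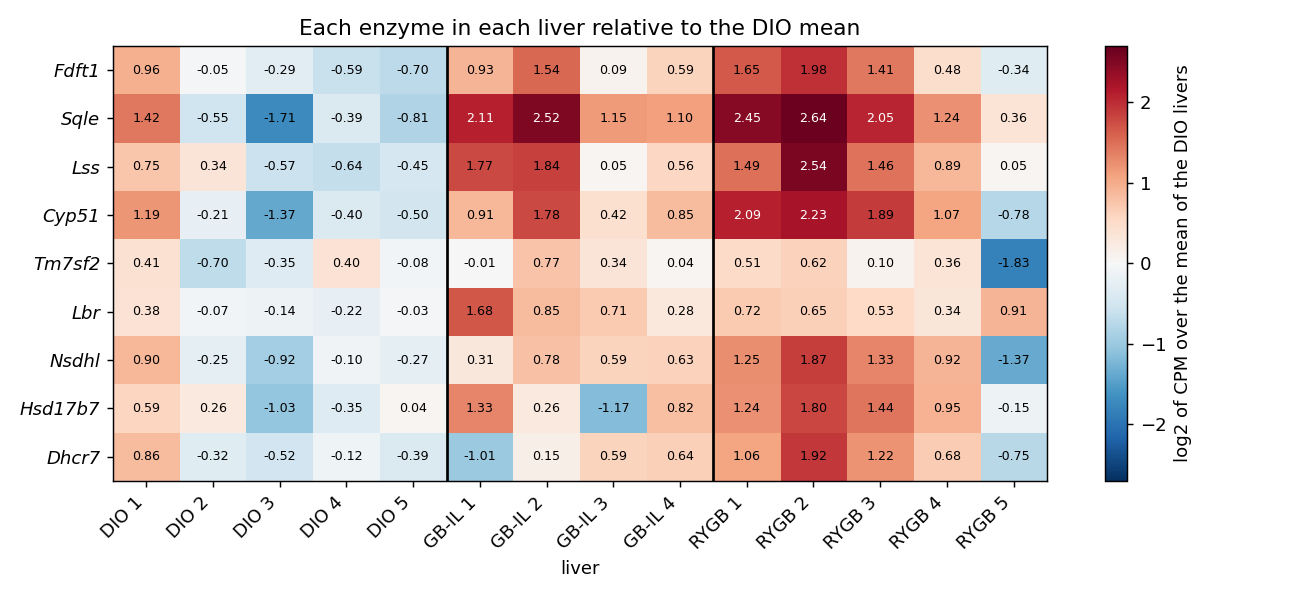
Log2 of the CPM of each enzyme (rows, in pathway order) in each of the 14 livers (columns) over the mean of the 5 DIO livers, with red above and blue below 0. DIO 1 is red throughout, RYGB 1 to 4 are red throughout, and RYGB 5 is blue in 6 of 9 rows.

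Without DIO 1, 5 of the 9 genes were higher in GB-IL than in DIO without overlap (3.73% of all genes) and 2 were higher in RYGB (3.23%). Without RYGB 5, 3 of the 9 were higher in RYGB than in DIO without overlap (2.44% of all genes). With both livers left out, an alternative chosen after the values had been seen, 8 of the 9 separated RYGB from DIO (4.32% of all genes) and the median log2 difference was 1.75. These livers were picked for their levels of these genes, so the separation follows from the choice. No member passed edgeR's threshold in that fit, the smallest adjusted p being 0.0605 in GB-IL and 0.0555 in RYGB.

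Across the 14 livers, Pearson correlations of log2 CPM between members were highest between Fdft1 and Lss (0.945), Fdft1 and Cyp51 (0.943) and Sqle and Cyp51 (0.94). The median correlation of a member with the other 8 was 0.836 for Cyp51, 0.803 for Nsdhl and 0.8 for Fdft1. It was 0.601 for Dhcr7, 0.532 for Tm7sf2 and 0.442 for Lbr. The correlation of Lbr was 0.0168 with Tm7sf2 and -0.033 with Dhcr7. Both values lean on GB-IL 1 and RYGB 5, which ranked 1 and 2 of the 14 livers for Lbr. The same livers ranked 10 and 14 for Tm7sf2, and 14 and 13 for Dhcr7. How Lbr followed these genes without the 2 livers was not tested. After subtraction of the group means the median was 0.812 for Cyp51, 0.664 for Tm7sf2 and 0.162 for Lbr. These correlations describe livers that share libraries and groups and were not tested.

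Outside the 9, the genes whose pattern over the 14 livers was most like the mean of the members, among 12687 genes with a mean of at least 1 CPM, included Sc4mol (r = 0.969), an older symbol of the C4-methyl sterol oxidase Msmo1, the processed pseudogene Gm3571 (r = 0.94), and the mevalonate arm enzymes Mvd (0.932) and Fdps (0.924). Spearman's rho was 0.952 for Sc4mol, 0.943 for Fdps, 0.925 for Gm3571 and 0.921 for Gm6781. Since Gm6781 is the pseudogene that matches Fdft1 at 97.4% identity, reads of Fdft1 may have been counted there. Its likeness is therefore not independent of the members. Without DIO 3 and RYGB 5, the livers farthest from the median, r was 0.962 for Sc4mol and 0.905 for Fdps.

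The other genes of the pathway were taken from lists of known members. In the mevalonate arm, which supplies farnesyl diphosphate, 8 of 8 genes had higher means in both comparisons and none was called by edgeR, with 2 at an unadjusted p below 0.05 in GB-IL and 6 in RYGB (16.7% and 5.35% of all genes were higher at that p). DESeq2 called 1 of the 8 in each of these comparisons, beside 1292 of the 14252 genes tested in GB-IL and 97 in RYGB. Voom called 6 of the 8 in RYGB, beside 1690 of the 14252. The median log2 difference of the 8 genes was 0.95 in GB-IL and 1.47 in RYGB. Mevalonate kinase Mvk had 12.8 ± 4.59 CPM in DIO, 38.5 ± 28.9 in GB-IL (log2 1.59, SE 0.55, edgeR adjusted p = 0.112) and 36.4 ± 24.6 in RYGB. By liver, the median log2 of the mevalonate genes over the DIO mean was 0.97 in DIO 1 and -0.53 in RYGB 5.

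**Figure D5:**
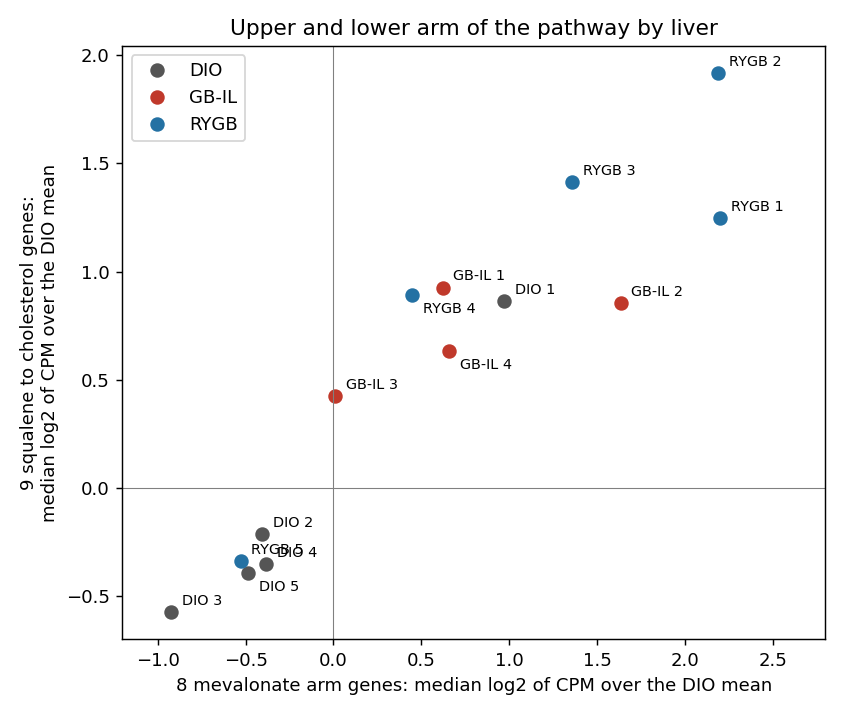
Median log2 of CPM over the DIO mean for the 8 mevalonate arm genes (x axis) and for the 9 squalene to cholesterol genes (y axis), with 1 labelled point per liver. RYGB 5 lies among DIO 2 to DIO 5 near -0.53 and -0.34, and DIO 1 lies among the operated livers at 0.97 and 0.86.

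Among the 4 other enzymes from lanosterol to cholesterol, 3 had higher means in each comparison with DIO and none was called by edgeR. Voom called 2 of the 4 in RYGB, where it called 1690 of the 14252 genes tested. Sc4mol had 85.8 ± 56.2 CPM in DIO, 215 ± 108 in GB-IL and 299 ± 181 in RYGB (log2 1.33 and 1.80, SE 0.56 and 0.54, edgeR adjusted p = 0.177 and 0.387). Of the 9 tested of 10 genes for sterol sensing and control of the LDL receptor, 7 had higher means in GB-IL and 8 in RYGB. None was called by edgeR, whereas voom called 5 in RYGB, again beside 1690 of the 14252 genes tested. Srebf2, the gene of SREBP2, differed by 0.70 (SE 0.31, edgeR adjusted p = 0.201) in GB-IL and 0.76 (SE 0.30, edgeR adjusted p = 0.516) in RYGB on the log2 scale. For 10 genes of cholesterol use and efflux the median log2 differences were -0.17 in GB-IL and 0.16 in RYGB, with none called by edgeR. Voom called 1 of the 10 in GB-IL, where it called 589 of the 14252 genes tested. Without GB-IL 4, edgeR also called 1 in GB-IL, where it called 3572 of 14492 genes tested.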

How the data were processed

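Liver RNA of 14 mice was sequenced, and the authors mapped reads to mm10 by TopHat2 and assigned them to genes by HTSeq. What they deposited is the raw count of each gene in each liver. For tool versions, annotation and strand, the settings were not given in the sources used here. Amplification with the Ovation kit is described in the methods. Per the labels there were stranded mRNA and total RNA kits, not assigned to livers, so the kit was not a term. Software was DESeq2 1.42.0, limma 3.58.1, edgeR 4.0.16 and R 4.3.3. Genes were kept by filterByExpr, scaled by TMM and tested by edgeR's quasi-likelihood method, in which all livers shared 1 fit with 3 group means, adjusted by Benjamini-Hochberg over 14252 genes (FDR 0.05), a procedure tested on simulated data. The 95% intervals use 11 residual degrees of freedom. Positions and lengths are those of GENCODE M21 (24701 of 25212 identifiers matched). Single ratios were compared by exact permutation. Likeness used log2(CPM + 0.5). Genes named were the members, those with the 3 smallest p in a pathway list and the 5 most alike by Pearson's r. Gm6781 was added after its values were seen. A few genes eligible for naming are left unreported. The members and lists were chosen with earlier results of these data known. Alternatives were other scalings, DESeq2, voom with quality weights, robust estimation, no filter, the compared groups only, a replicate block and each liver left out. Column names matched sample titles by group and number. Authors' own comparisons were not used.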

Additional observations from a re-analysis of the deposited data

Results flagged for a closer look

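Each of the 9 genes was examined for a single liver far from the rest of its group (Dixon's test at the 95% level). Of the 27 tests 5 singled out a liver, and in each of the 5 it was DIO 1 as the highest DIO liver, with 162 CPM of Fdft1, 86.6 CPM of Sqle, 205 CPM of Cyp51, 10.6 CPM of Lbr and 111 CPM of Dhcr7. Chance singles out about 1 in 20 groups, and the 9 genes share the same libraries. By the same measure DIO 1 stood apart as the highest DIO liver for 1.44% of all genes tested.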

How the results depend on the processing

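All 9 genes kept higher means than DIO in GB-IL and in RYGB under every alternative, except Hsd17b7 in GB-IL with voom (-0.26), Dhcr7 in GB-IL with the replicate block (-0.019) and Tm7sf2 in RYGB with the replicate block (-0.0052, log2). The cause of these changes was not tested. Between GB-IL and RYGB, with 1 liver left out, Sqle ranged from -0.44 to 0.12, turning without GB-IL 3 (0.06), GB-IL 4 (0.06), RYGB 1 (0.04) or RYGB 2, and Lss from -0.54 to 0.17, turning without RYGB 2. Lbr ranged from -0.018 to 0.50, turning without GB-IL 1, and Tm7sf2 from -0.10 to 0.29, turning without GB-IL 2 (-0.04) or RYGB 5. With DIO 1 and RYGB 5 both left out Tm7sf2 was at -0.10. The log2 ratio of Lbr to Tm7sf2 between GB-IL and RYGB ranged from -0.45 to 0.43 with 1 liver left out, turning to 0.08, 0.03 and 0.43 without GB-IL 2, GB-IL 4 and RYGB 5.

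The count of members called in GB-IL against DIO was 1 by edgeR and 2 by DESeq2, and 0 with voom, with no filter, with the replicate block, in the fit of the compared groups alone, and without DIO 1 and RYGB 5. In RYGB against DIO it was 0 by edgeR, 1 by DESeq2 and 8 with voom. Over all genes, 465 were called in GB-IL against DIO by edgeR, 1292 by DESeq2, 1 with the replicate block, 0 in the fit of the compared groups alone and 0 without DIO 1 and RYGB 5. In RYGB against DIO the counts were 0, 97 by DESeq2, 1690 with voom and 33 in the compared groups alone, and in GB-IL against RYGB they were 0, 845 by DESeq2, 115 with voom and 51 with no filter.

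With 1 liver left out, the members called in GB-IL against DIO ranged from 0 to 2 and all genes called from 0 to 3572, the highest counts coming without GB-IL 4. In RYGB against DIO all genes called ranged from 0 to 5, and in GB-IL against RYGB from 0 to 3120. The median log2 difference of the members ranged from 0.65 to 1.08, from 0.99 to 1.47 and from -0.60 to -0.12 in the 3 comparisons.

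By the correlations between livers, the replicate numbers showed no pairing. The correlation of same-numbered livers ranged from -0.38 to 0.38 over 13 pairs, and 2 were over 0.1. That of differently numbered livers ranged from -0.41 to 0.47 over 52 pairs, and 17 were over 0.1. With the replicate block Lbr in GB-IL lost its call (log2 0.94, edgeR adjusted p = 0.0762). For the members the block changed the SE unevenly. In RYGB against DIO the SE of Fdft1, Sqle, Lss, Cyp51, Lbr and Hsd17b7 fell. That of Tm7sf2, Nsdhl and Dhcr7 rose. For Lss it went from 0.46 to 0.28, and for Dhcr7 from 0.43 to 0.44. What the replicate numbers stand for in these genes was not tested.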
